A study of Solanum lycopersicum with 8 samples.

Results

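The circadian clock genes described here are 9 tomato genes, among the 34722 in the deposited count table, that were chosen by identifier as LHY, a pair of GIGANTEA genes, TOC1, LUX, a pair of further pseudo-response regulators, EID1 and LNK2. The table gives identifiers without gene names, so these names are those under which the genes were chosen. They were read as a possible sign of the time of day at which the leaves were harvested. RNA was sequenced from young leaves of tomato seedlings of 2 genotypes, and all seedlings, controls included, had received paclobutrazol, an inhibitor of gibberellin synthesis, at 10 mg/l once daily for 3 days. The 4 groups were the mutant pro∆GRAS with and without 100 µM GA3, an active gibberellin, and the cultivar M82 with and without it, each with 2 libraries. Leaves of the GA3-treated plants were taken 3 hours after the application. The mutant, "null" in the table, carries a lesion in PROCERA, the gene of tomato's DELLA, a nuclear protein that holds back gibberellin responses. No group lacked paclobutrazol. Plants grew in a greenhouse at 24 °C by day and 20 °C by night under natural day length. The clock time of harvest, and whether the groups or the libraries of a group were harvested together, are not given in the sources used here. The biological replicates are not described further, and p-values reflect only how far these libraries differ, which may in part be technical.

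The plant clock is a loop of transcription factors that repress one another in turn over the day. In Arabidopsis, LHY is a MYB factor that peaks near dawn and represses evening genes, among them TOC1, GIGANTEA and LUX. The pseudo-response regulators follow one another through the day and repress LHY, with TOC1, itself a member of that family, acting in the evening. A level of LHY set against those of the evening genes therefore depends on the hour of sampling. Cultivated tomato carries altered forms of EID1 and LNK2 that are known to slow its clock. In Arabidopsis, the GIGANTEA protein also binds and stabilises DELLA proteins, and gibberellin receptor transcripts follow the clock.

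Libraries held between 14395465 and 18483028 counts. The 100 most abundant genes took 50.3% of the counts in M82 library 2 with GA3 and 45.5% in M82 library 3 without GA3, against 31.4% to 41.3% in the other 6, and several of the differences that involve M82 are also given without both of these libraries. Leaving both out left a single library in each M82 group, so the spread in those fits came from the mutant libraries only. Libraries are named by the number they carry in the table. Levels are CPM, reads scaled to 1e+06 per library, after correction by edgeR's TMM factor. They are not divided by gene length, since lengths were not used here, so levels of different genes are not compared. Identifiers did not match the tomato gene table used here (0 of 34722), and therefore leaf markers, the PROCERA transcript and clock genes beyond these 9 were not analysed here. Chromosome numbers are those within the identifiers.

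Of the 9 genes, 8 had enough counts to be tested. None passed an adjusted p under 0.05 in edgeR's quasi-likelihood test, in any of 6 contrasts of one model fitted to 18340 genes. The contrast with the widest separation was that between the genotypes after GA3. There LHY was lower in the mutant, a difference that DESeq2 called and edgeR did not. The widest separation between replicate libraries was in the mutant without GA3, where LHY and both GIGANTEA genes were all higher in library 1 and 1 pseudo-response regulator was far lower in it.

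**Figure D1:**
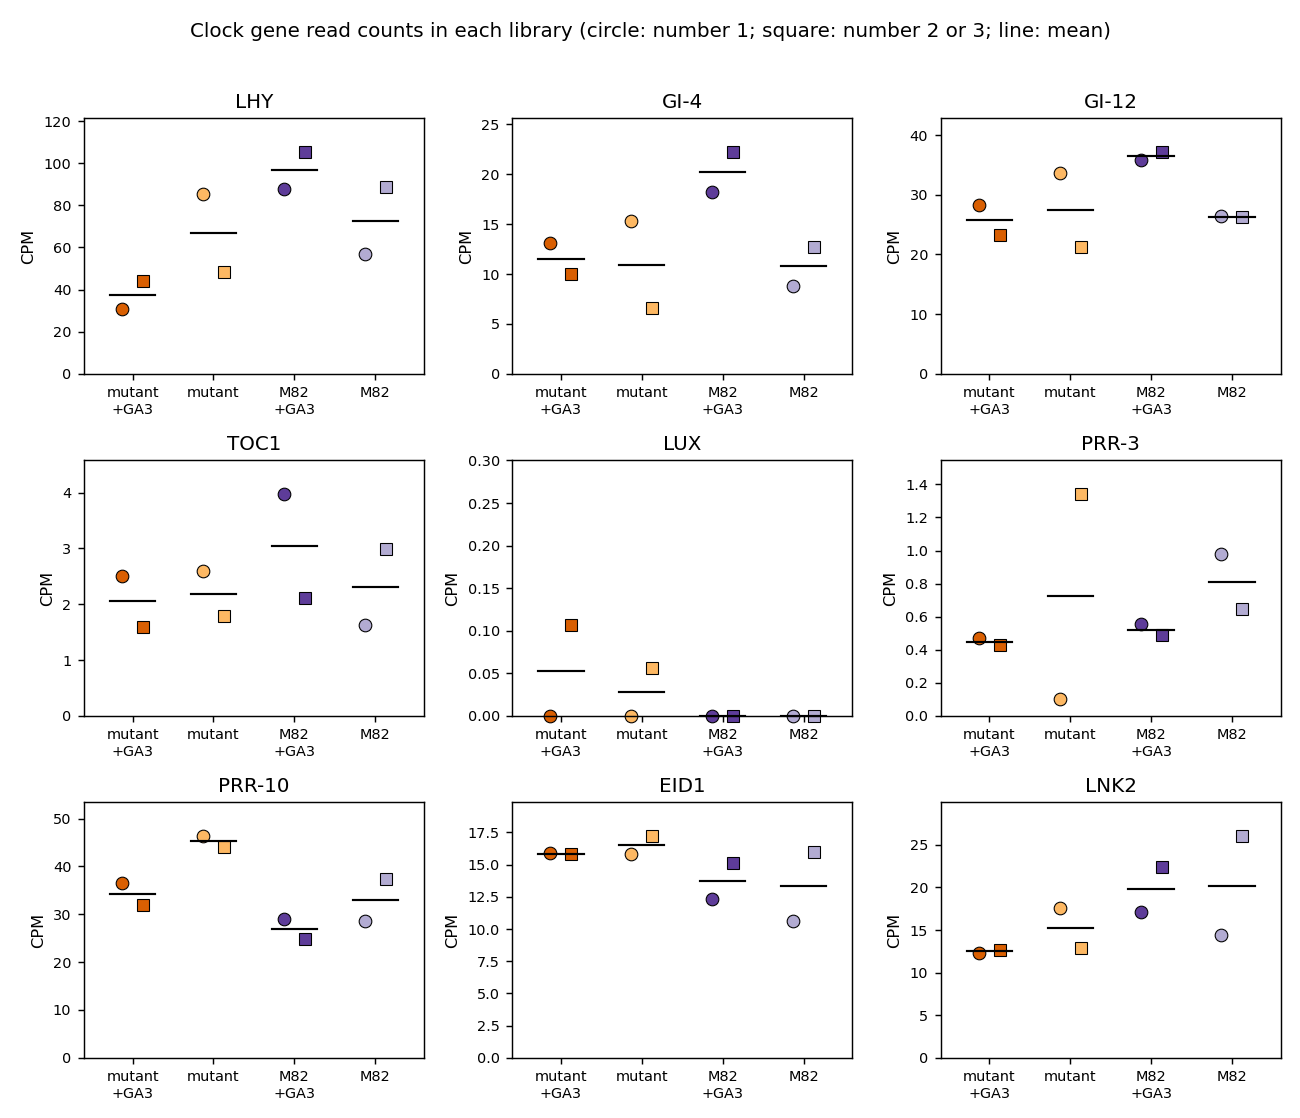
Read counts of the 9 clock genes in CPM (reads scaled to a common library size; vertical axis, starting at 0) in each library, by group; circles are library 1, squares the other library of the group, and lines group means of 2 libraries. LHY in the mutant with GA3 (30.8 and 43.9 CPM) lies below all other libraries, and LUX has a count in only 2 libraries.

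LHY (Solyc10g005080, on chromosome 10) had 30.8 CPM in library 1 and 43.9 CPM in library 3 of the mutant with GA3. It had 85.4 CPM in library 1 and 48.3 CPM in library 3 of the mutant without GA3. In M82 it had 87.7 CPM in library 1 and 105 CPM in library 2 with GA3, and 56.7 CPM in library 1 and 88.8 CPM in library 3 without GA3. The 2 mutant libraries with GA3 were thus the lowest of the 8, and mutant library 3 without GA3 came next. These levels rest on 650 to 1649 reads per library. Library 3 of the mutant with GA3 and library 3 of the mutant without it, the nearest across these groups, differed by less than counting error (826 and 862 reads, log2 difference -0.14, exact binomial 95% interval -0.28 to 0.004).

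With GA3, LHY averaged 37.4 ± 9.29 CPM in the mutant and 96.6 ± 12.5 CPM in M82 (SD, n = 2 each), a log2 fold change of -1.37 (SE 0.344, 95% interval -2.14 to -0.60). The edgeR adjusted p was 0.136 and the unadjusted p 0.0028. DESeq2 gave an adjusted p of 0.0125, one of the 3.01% of all tested genes that it called in this contrast, against 0.354% called by edgeR. Without the filter on low counts the edgeR adjusted p was 0.0165, where 438 genes were called in all, against 65 with the filter. Leaving out single libraries gave log2 fold changes of -1.61 to -1.10 and edgeR adjusted p-values of 0.0583 to 0.645. Without both M82 libraries that stood apart the log2 fold change was -1.22 (edgeR adjusted p = 0.28).

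Without GA3, LHY averaged 66.8 ± 26.3 CPM in the mutant and 72.7 ± 22.7 CPM in M82 (SD, n = 2 each), and the libraries of the 2 genotypes overlapped. The log2 fold change was -0.12 (95% interval -0.88 to 0.64, edgeR adjusted p = 0.965). Its sign depended on single libraries: it was 0.25 without mutant library 3 and 0.20 without M82 library 3. It was 0.24 without both M82 libraries that stood apart, and 0.02 when libraries were scaled by their totals only. Averaged over the 2 treatments, the genotype difference of LHY was -0.75 (SE 0.24, 95% interval -1.28 to -0.21, edgeR adjusted p = 0.133). It was -0.89 without M82 library 1 without GA3, which left 1 library in that group. It was called without the filter (edgeR adjusted p = 0.0444), where 1141 genes were called in all, against 559 with the filter. It was -0.49 without both M82 libraries that stood apart (edgeR adjusted p = 0.441).

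The GA3 effect on LHY was -0.84 in the mutant (95% interval -1.603 to -0.08, unadjusted p = 0.0343, edgeR adjusted p = 1), with libraries that did not overlap. Without mutant library 1 without GA3 it was -0.37, and without mutant library 3 without GA3 it was -1.19. In M82 the effect was 0.41 (95% interval -0.35 to 1.17, edgeR adjusted p = 0.79), with overlapping libraries, and it was 0.12 without M82 library 1 and 0.73 without M82 library 3, both without GA3. The difference of the 2 effects, tested as an interaction, was -1.25 (SE 0.48, 95% interval -2.32 to -0.17, unadjusted p = 0.0272, edgeR adjusted p = 0.994). It was -0.76 without mutant library 1 without GA3. The effects thus lay on opposite sides of 0, and their difference did not pass the test over all genes.

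LNK2 (Solyc01g068560, on chromosome 1) belongs to a family of co-activators that work with MYB factors related to LHY in Arabidopsis. It had 12.4 and 12.6 CPM in mutant libraries 1 and 3 with GA3 and 17.6 and 12.9 CPM in mutant libraries 1 and 3 without GA3. The M82 levels were 17.1 and 22.5 CPM in libraries 1 and 2 with GA3 and 14.4 and 26.1 CPM in libraries 1 and 3 without GA3. With GA3 the genotypes did not overlap, at 12.5 ± 0.169 CPM in the mutant and 19.8 ± 3.80 CPM in M82 (SD, n = 2 each). The log2 fold change was -0.66 (95% interval -1.36 to 0.04, edgeR adjusted p = 0.364). It was -0.44 without M82 library 2 with GA3 and -0.33 when scaled by library totals only. The genotype difference averaged over treatments was -0.53 (95% interval -1.03 to -0.04, unadjusted p = 0.0367, edgeR adjusted p = 0.223). It was -0.18 without both M82 libraries that stood apart and -0.30 without M82 library 3 without GA3 alone.

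Among the other 7 tested clock genes, LNK2 had the highest correlation with LHY over the 8 libraries, with a Pearson correlation of log2 CPM of 0.865 and a Spearman correlation of 0.952. The correlation of LHY was 0.622 with the chromosome 4 GIGANTEA gene, 0.648 with the chromosome 12 one, 0.449 with TOC1 and -0.165 with EID1 (Pearson). It was -0.250 with the pseudo-response regulator on chromosome 10 and -0.259 with that on chromosome 3. These values describe 8 libraries of 4 groups, which share group differences and scaling, and were not tested.

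Among 11266 genes averaging 5 CPM or more, those most like LHY over the same libraries were Solyc01g007320 and Solyc04g082660 (Pearson 0.977 and 0.976). Those most opposite were Solyc06g007930 and Solyc09g008140 (-0.982 and -0.954). For TOC1 the most like were Solyc02g090110 and Solyc10g076360 (0.928 and 0.923), and the most opposite Solyc10g081130 and Solyc03g117900 (-0.945 and -0.884). These were picked as the extremes of many genes and are not named in the table.

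GIGANTEA is a large plant protein that in Arabidopsis stabilises an F-box photoreceptor which targets TOC1 for degradation. The GIGANTEA gene on chromosome 4 (Solyc04g071990, here GI-4) had 13.1 and 10.0 CPM in mutant libraries 1 and 3 with GA3 and 15.3 and 6.55 CPM in mutant libraries 1 and 3 without GA3. In M82 it had 18.2 and 22.2 CPM in libraries 1 and 2 with GA3 and 8.82 and 12.8 CPM in libraries 1 and 3 without GA3. Both M82 libraries with GA3 lay above all other 6.

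In M82, GI-4 averaged 20.2 ± 2.87 CPM with GA3 and 10.8 ± 2.79 CPM without it (SD, n = 2 each). Its log2 fold change of 0.91 (95% interval 0.05 to 1.77, unadjusted p = 0.0406, edgeR adjusted p = 0.646) was the largest GA3 effect in M82 among the 8 tested clock genes. Leaving out single libraries gave 0.66 to 1.16, and leaving out both M82 libraries that stood apart gave 1.05. With GA3 it averaged 11.5 ± 2.18 CPM in the mutant and 20.2 ± 2.87 CPM in M82, a log2 fold change of -0.81 (95% interval -1.66 to 0.04, edgeR adjusted p = 0.362). That difference was -0.48 when scaled by library totals only and -0.64 without both M82 libraries that stood apart.

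The GIGANTEA gene on chromosome 12 (Solyc12g056650, here GI-12) had 28.3 and 23.2 CPM in mutant libraries 1 and 3 with GA3 and 33.7 and 21.2 CPM in mutant libraries 1 and 3 without GA3. M82 libraries gave 35.9 and 37.2 CPM in libraries 1 and 2 with GA3 and 26.4 and 26.2 CPM in libraries 1 and 3 without GA3. As for GI-4, its 2 highest libraries were those of M82 with GA3 under TMM scaling. Scaled by library totals only, GI-4 stayed separated between the genotypes with GA3, whereas GI-12 overlapped there and lost that ranking. The GA3 effect on GI-12 in M82 was 0.47 (95% interval -0.10 to 1.05, edgeR adjusted p = 0.69), and 0.45 without both M82 libraries that stood apart. Its genotype difference with GA3 was -0.50 (95% interval -1.08 to 0.07, edgeR adjusted p = 0.391). It was -0.19 when scaled by library totals only and -0.47 without both M82 libraries.

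TOC1 (Solyc06g069690, on chromosome 6) was sparsely read, with 25 to 72 reads per library. It had 2.51 and 1.595 CPM in mutant libraries 1 and 3 with GA3 and 2.59 and 1.79 CPM in mutant libraries 1 and 3 without GA3. The M82 values were 3.98 and 2.11 CPM in libraries 1 and 2 with GA3 and 1.63 and 2.99 CPM in libraries 1 and 3 without GA3. The groups overlapped in all 4 pairwise contrasts.

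LUX (Solyc06g005680, on chromosome 6) encodes the DNA-binding subunit of the evening complex, which in Arabidopsis represses genes at night. It had 2 reads in mutant library 3 with GA3, 1 read in mutant library 3 without GA3 and no read in the other 6 libraries, M82 included. A count of 0 allows up to 0.142 to 0.242 CPM, depending on the library, for counting error only. It was left out of the tests, and no difference between groups was detectable at this depth.

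Pseudo-response regulators are receiver-domain proteins that in Arabidopsis repress LHY and its relatives by day. The one on chromosome 10 (Solyc10g005030, here PRR-10) had 36.5 and 32.0 CPM in mutant libraries 1 and 3 with GA3 and 46.4 and 44.1 CPM in mutant libraries 1 and 3 without GA3. In M82 it had 29.0 and 24.8 CPM in libraries 1 and 2 with GA3 and 28.5 and 37.4 CPM in libraries 1 and 3 without GA3. The mutant lay above M82 within each treatment, the opposite side to LHY and LNK2 after GA3.

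PRR-10 averaged 45.2 ± 1.66 CPM in the mutant and 33.0 ± 6.25 CPM in M82 without GA3 (SD, n = 2 each), a log2 fold change of 0.46 (95% interval -0.05 to 0.96, edgeR adjusted p = 0.546). The difference was 0.28 without M82 library 1 without GA3. Averaged over treatments, the genotype difference was 0.40 (95% interval 0.05 to 0.76, unadjusted p = 0.0307, edgeR adjusted p = 0.205). It was 0.31 to 0.49 when single libraries were left out and 0.61 when scaled by library totals only.

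The pseudo-response regulator on chromosome 3 (Solyc03g081240, here PRR-3) was read 2 to 24 times per library. It had 0.474 and 0.425 CPM in mutant libraries 1 and 3 with GA3 and 0.104 and 1.34 CPM in mutant libraries 1 and 3 without GA3. M82 samples had 0.553 and 0.491 CPM in libraries 1 and 2 with GA3 and 0.979 and 0.646 CPM in libraries 1 and 3 without GA3. The mutant libraries without GA3 thus held both the lowest and the highest value of the 8.

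EID1 (Solyc09g075080, on chromosome 9) is an F-box protein of phytochrome A signalling. It was the steadiest of the 8 tested genes, with 15.9 and 15.8 CPM in mutant libraries 1 and 3 with GA3 and 15.8 and 17.2 CPM in mutant libraries 1 and 3 without GA3. The values in M82 were 12.3 and 15.2 CPM in libraries 1 and 2 with GA3 and 10.6 and 16.0 CPM in libraries 1 and 3 without GA3. Its SD of log2 CPM over the 8 libraries was 0.232, below that of most genes (percentile 17.6). The median SD was 0.419 for the 8 clock genes and 0.392 for all genes tested.

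**Figure D2:**
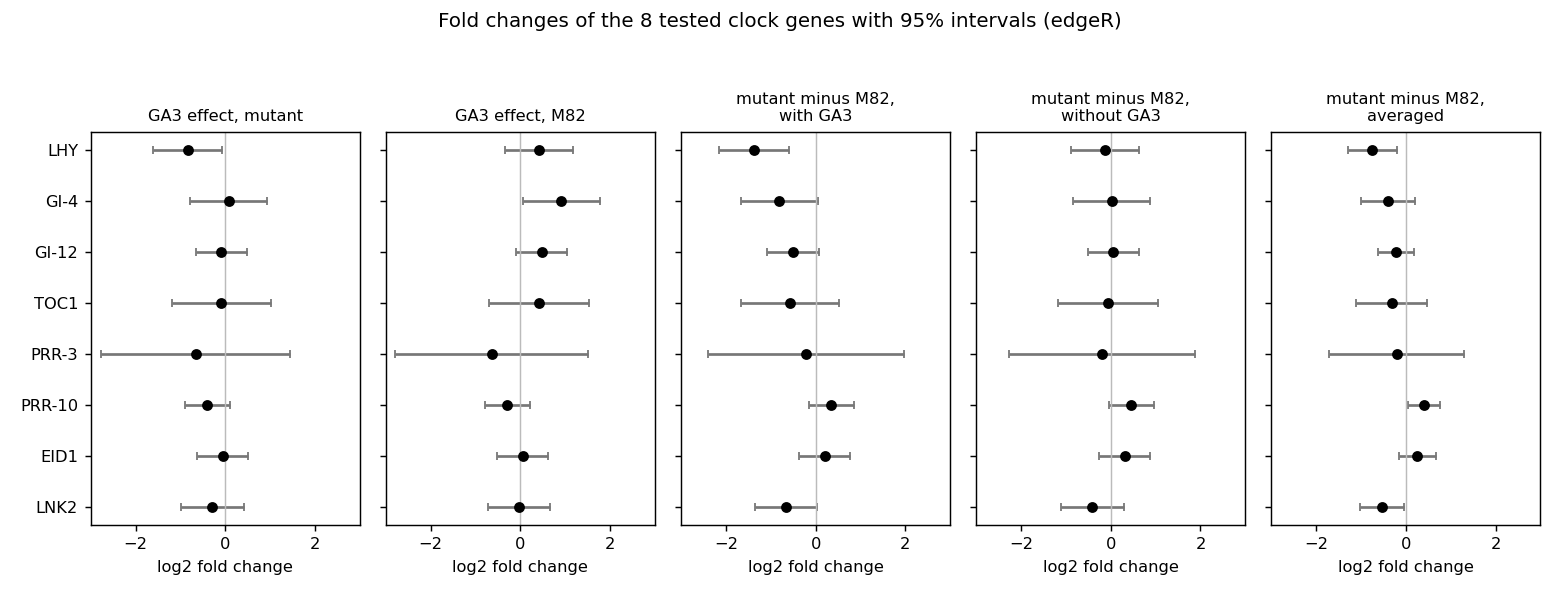
Log2 fold changes of the 8 tested clock genes (horizontal axis) with 95% intervals from edgeR's quasi-likelihood fit, for GA3 effects in the mutant and in M82 and for genotype differences with GA3, without GA3 and averaged. The LHY interval for the mutant minus M82 with GA3 (-2.14 to -0.60) lies farthest from 0, and most intervals cross 0.

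As a group, 0 of 8 tested clock genes were called by edgeR for the GA3 effect in the mutant, where 0% of all genes were called, and 0 of 8 for the GA3 effect in M82, where 0.0164% were. None was called for the genotype difference with GA3 (0.354% of all genes) or without GA3 (0.393%), for the averaged genotype difference (3.05%) or for the difference of the GA3 effects (0%). At an unadjusted p under 0.05 the counts were 1 of 8 for the GA3 effect in the mutant (LHY) and 1 of 8 in M82 (GI-4), where 2.67% and 7.62% of all genes were. They were 1 of 8 for the genotype difference with GA3 (LHY; 14.7% of all genes) and 0 of 8 without GA3 (10.2%). They were 3 of 8 for the averaged difference (LHY, PRR-10 and LNK2; 19.4%) and 1 of 8 for the difference of the GA3 effects (LHY; 3.76%). DESeq2 called 1 of 8 with GA3 between the genotypes and 0 of 8 in the other 5 contrasts, where it called 0.158% of all genes for GA3 in the mutant, 0.589% for GA3 in M82, 2.25% for the genotypes without GA3, 0.109% for the difference of the GA3 effects and 6.95% for the average.

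With GA3, the libraries of the mutant and M82 did not overlap for 7 of the 8 genes. LHY, GI-4, GI-12, PRR-3 and LNK2 were lower in the mutant, where 25.2% of all genes were separated in that direction. PRR-10 and EID1 were higher, where 24.6% were. Scaled by library totals only, a check chosen after seeing the data, 5 of the 8 did not overlap, and GI-12 and PRR-3 did. Under that scaling LHY, GI-4 and LNK2 were lower in the mutant, and PRR-10 and EID1 were higher. Of all genes, 41.2% were then separated as higher, and the share separated as lower fell below the 25.2% given above. The separation of PRR-3 rests on 7 to 10 reads per library, and scaled by library totals only its fold change had the other sign. The median log2 fold change was -0.54 over the 8 genes and 0.01 over all genes tested, and the median absolute values were 0.54 and 0.38. Scaled by library totals only, the median was -0.24 over the 8 genes and 0.32 over all genes, a gap of -0.56. Without GA3 the median was -0.02 over the 8 genes and -0.01 over all genes, with absolute medians of 0.16 and 0.29. The genotypes without GA3 were separated for PRR-10 (higher, as were 19.3% of all genes). EID1 joined it when scaled by totals only, where 23.4% of all genes were higher. Over both treatments, the 4 mutant and the 4 M82 libraries overlapped for all 8 genes, whereas 6.38% of all genes were separated with the mutant higher and 5.8% with it lower.

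After GA3, 3 of 8 genes were lower without overlap in the mutant (LHY, PRR-10 and LNK2; 14.9% of all genes) and 0 of 8 higher (14.3%). The nearest libraries for LNK2, both numbered 3, had 12.6 CPM with GA3 and 12.9 CPM without it, from 237 and 230 reads. Scaled by library totals only, LNK2 overlapped, LHY and PRR-10 were lower (7.48% of all genes) and EID1 higher (25.5%). For LHY under that scaling the nearest libraries, both numbered 3, had 48.44 CPM with GA3 and 48.50 CPM without it. That difference was within counting error (log2 difference -0.002, exact binomial 95% interval -0.14 to 0.14). In M82, 2 of 8 were higher without overlap (GI-4 and GI-12; 19.3% of all genes) and 1 lower (PRR-3; 16.6%). PRR-3 rests there on 10 and 7 reads with GA3 and 15 and 8 without it. Scaled by totals only, PRR-3 overlapped, and LHY was also higher (15.6% of all genes) and PRR-10 lower (15%). The median GA3 effect over the 8 genes was -0.19 in the mutant and 0.23 in M82, and over all genes it was within 0.01 of 0 in both. The absolute medians in the mutant were 0.19 over the 8 genes and 0.21 over all genes. In M82 they were 0.41 and 0.30. All 8 genes had a lower GA3 effect in the mutant than in M82, as had 9187 of the 18340 genes tested. The median difference was -0.38 over the 8 genes, and the median absolute values were 0.38 over these and 0.36 over all genes. None was called, and the 95% interval excluded 0 for LHY only. Scaled by library totals only, 5 of 8 had a lower effect in the mutant, with PRR-3, PRR-10 and EID1 on the other side. Under that scaling 7 of 8 lay below the median of all genes, which was 0.20. The contrasts of GA3 and genotype share libraries, so these counts are not independent of one another.

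The 2 libraries of a group have the same genotype and treatment, so their difference is a measure of what these leave unset. In the mutant without GA3, library 1 differed from library 3 by a median of 0.59 (absolute log2 CPM) over the 8 clock genes, against 0.31 over all genes tested. GI-4 was 2.34-fold higher in library 1 (log2 difference 1.21, exact binomial 95% interval 0.91 to 1.55, counting error only). LHY was 1.77-fold higher (0.82, 0.70 to 0.94) and GI-12 1.59-fold higher (0.67, 0.49 to 0.86) on the same terms. LNK2 was 1.36-fold higher (0.44, 0.20 to 0.70). The difference of TOC1 was on the same side and within counting error (0.50, -0.14 to 1.22).

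PRR-3 went the other way in the same pair of libraries, with 2 reads in library 1 and 24 in library 3, 12.97-fold higher in library 3. Its log2 difference of -2.73 (prior count of 2; counting interval -6.82 to -1.69) lay at percentile 99.8 of all genes tested by absolute size. GI-4 lay at percentile 94.2, LHY at 86.5 and GI-12 at 80.6. PRR-10 and EID1 differed by less than counting error (0.07 and -0.13). Hence 4 of the 8 genes lay above the upper quartile of all genes in this group.

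In M82 without GA3, 6 of 8 genes were lower in library 1 than in library 3, with a median absolute difference of 0.55, against 0.46 over all genes. LNK2 differed by -0.85, TOC1 by -0.83, LHY by -0.65, EID1 by -0.58 and GI-4 by -0.53, each beyond counting error, while GI-12 differed by 0.01. In the same order, those beyond counting error lay at percentiles 76.4, 75.1, 64.8, 60.2 and 56.2 of all genes by absolute size. Library 3 is one of the 2 that stood apart, and when scaled by totals only the median was 0.34 for the clock genes and 0.48 for all genes. The part of the library's composition in these differences was not tested.

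Within the other 2 groups the median difference of the clock genes was below that of all genes. The medians were 0.24 in the mutant with GA3 and 0.28 in M82 with GA3, against 0.34 over all genes in both. In the mutant with GA3, LHY was lower in library 1 (-0.51), whereas GI-4 and GI-12 were higher in it (0.38 and 0.28), each beyond counting error. By absolute size these lay at percentiles 67.0, 54.8 and 42.7 of all genes tested. In M82 with GA3, TOC1 was 1.89-fold higher in library 1 (0.88, 0.29 to 1.58), and LHY, GI-4 and LNK2 were lower in it (-0.26, -0.29 and -0.39). TOC1 lay at percentile 86.3 of all genes, and LHY, GI-4 and LNK2 at 40.5, 43.7 and 55.2. Library 2 of this group is one of the 2 that stood apart. Scaled by totals only, the differences were 0.07 for LHY, 0.04 for GI-4, -0.06 for LNK2 and 1.19 for TOC1, so those of LHY and GI-4 changed sign.

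**Figure D3:**
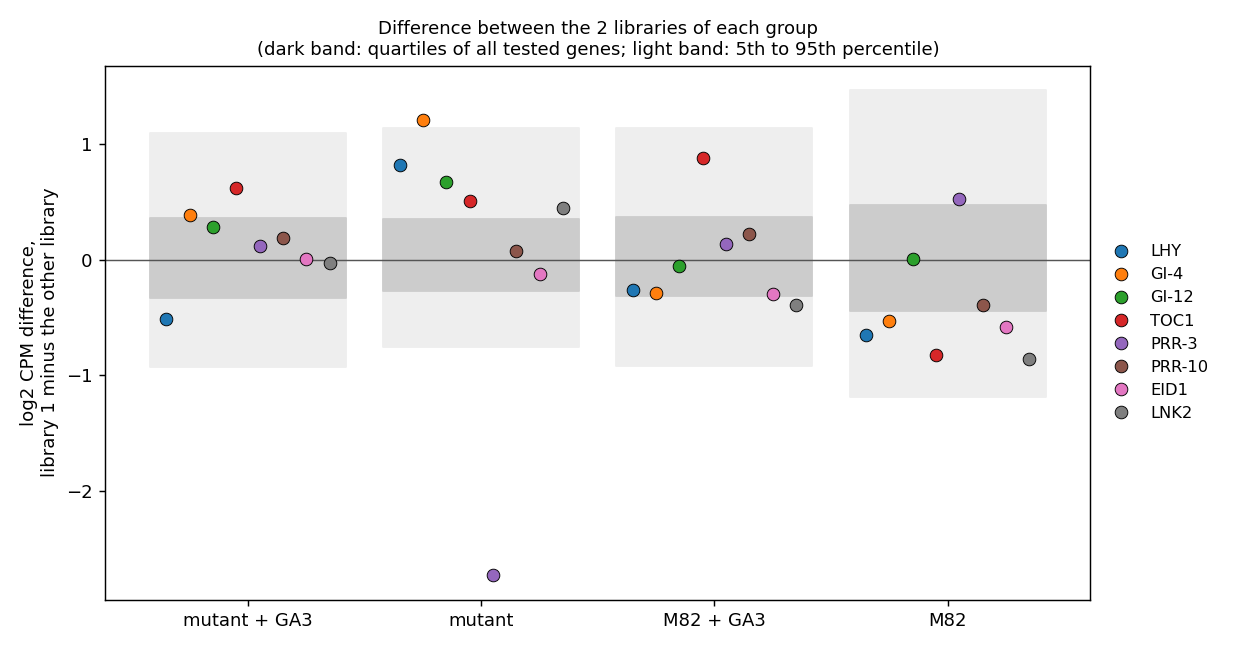
Log2 CPM of library 1 minus that of the other library of the same group (vertical axis) for the 8 tested clock genes, by group; dark bands run from the lower to the upper quartile of all 18340 tested genes and light bands the 5th to 95th percentile. In the mutant without GA3, PRR-3 (-2.73) and GI-4 (1.21) lie outside the light band.

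Ratios between clock genes within a library do not depend on how libraries are scaled. LHY reads per GI-4 read were 2.36 and 4.39 in mutant libraries 1 and 3 with GA3 and 5.57 and 7.37 in mutant libraries 1 and 3 without GA3. In M82 they were 4.82 and 4.74 in libraries 1 and 2 with GA3 and 6.43 and 6.96 in libraries 1 and 3 without GA3. All 4 libraries with GA3 thus lay below all 4 without it, over both genotypes. Of 17886 genes with reads in every library, 0.66% gave a ratio to LHY that was separated in this way and 0.0447% one separated in the opposite way. GI-4 was the only 1 of the 7 other tested clock genes to do so. The levels behind the ratio of LHY to GI-4 differed by genotype. In the mutant, LHY averaged 37.4 CPM with GA3 and 66.8 CPM without it, and GI-4 11.5 and 10.9 CPM. In M82, LHY averaged 96.6 CPM with GA3 and 72.7 CPM without it, and GI-4 20.2 and 10.8 CPM. This ratio was singled out after the values were seen and was not tested.

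LHY reads per GI-12 read were 1.09 and 1.89 in mutant libraries 1 and 3 with GA3 and 2.53 and 2.28 in mutant libraries 1 and 3 without GA3. In M82 they were 2.45 and 2.83 in libraries 1 and 2 with GA3 and 2.15 and 3.38 in libraries 1 and 3 without GA3. Both mutant libraries with GA3 had a lower ratio than the other 6. LHY reads per TOC1 read were 12.3 and 27.5 in mutant libraries 1 and 3 with GA3 and 33.0 and 26.9 in mutant libraries 1 and 3 without GA3. In M82 they were 22.0 and 50.1 in libraries 1 and 2 with GA3 and 34.7 and 29.7 in libraries 1 and 3 without GA3, on the sparse counts of TOC1. Mutant library 1 with GA3 was the lowest of the 8 for all 3 ratios. The 3 ratios share the LHY count, which was lowest in that library (650 reads), so they are not independent of one another.

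In mutant libraries 1 and 3 without GA3, LHY reads per PRR-10 read were 1.84 and 1.10. On a log2 scale this gap was wider than for LHY to GI-4 (5.57 and 7.37), GI-12 (2.53 and 2.28) and TOC1 (33.0 and 26.9). It was not particular to PRR-10. Between these libraries PRR-10 differed by 0.07 (log2), whereas EID1 and PRR-3 were lower in library 1 (-0.13 and -2.73), farther from LHY (0.82). The levels of LHY and of both GIGANTEA genes were higher together in library 1. Harvest time was not recorded in the sources used here, so a difference in hour between groups or libraries cannot be told apart from genotype, GA3 or other differences between the plants.

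**Figure D4:**
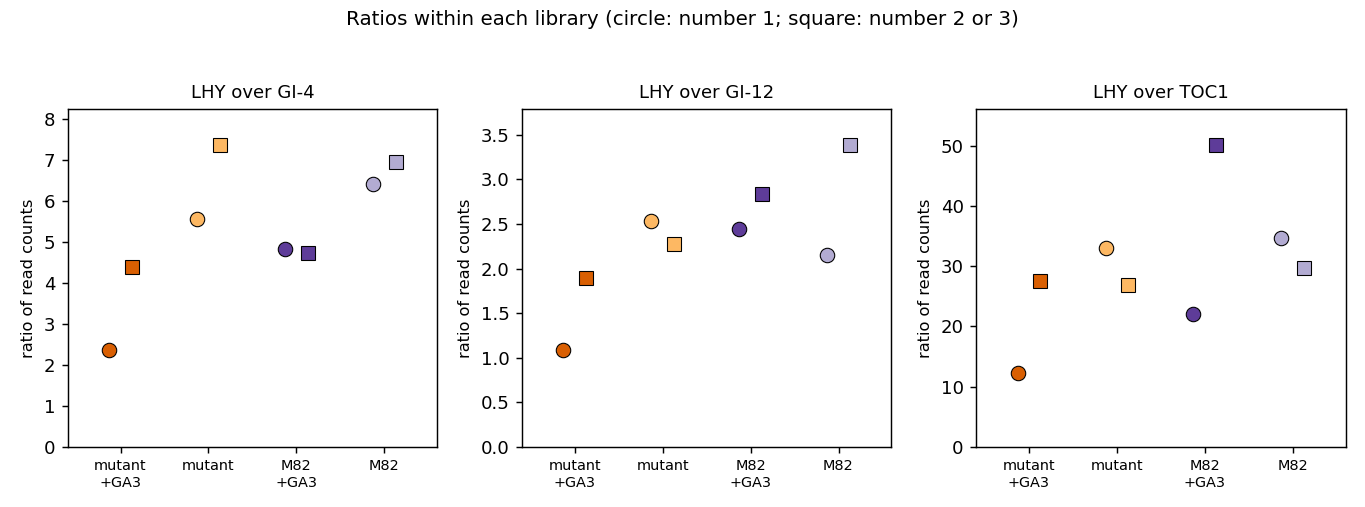
Ratio of LHY read counts to those of GI-4, GI-12 and TOC1 within each library (vertical axes, starting at 0), by group; circles are library 1 and squares the other library of the group. For GI-4 the 4 libraries with GA3 (2.36 to 4.82) lie below the 4 without it (5.57 to 7.37).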

How the data were processed

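RNA was sequenced from young tomato leaves in 8 libraries. Raw read counts per gene were deposited by the authors, per the file headers. Tools named in the submitters' processing notes are DESeq2 1.6.3, HTSeq 0.6.1p1 and TopHat2 2.0.10. Build, annotation and counting options are not given in the sources used here, and per the labels' protocols the kit was TruSeq RNA v2, which does not mark strand, so reads from overlapping antisense genes cannot be told apart. A second block of 8 normalized columns was not used. Of the count columns, 5 matched a sample title, and 3 numbered 3 matched a group only. No 2 libraries of a group were copies (chi-square per degree of freedom 34.1 to 82.4).

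Genes were kept by filterByExpr (minimum count 10; 18340 genes with 99.9% of the counts), scaled by TMM and fitted under R 4.3.3 by edgeR 4.0.16 (robust quasi-likelihood test) in a single model of the 4 groups with 4 residual degrees of freedom, with Benjamini-Hochberg adjustment over all genes. SEs are the log2 fold change over the square root of F. Called means an adjusted p under 0.05. DESeq2 1.42.0 was an alternative. Library differences used log2 CPM with a prior count of 2. The edgeR procedure was also run on simulated counts, whose outcome is not given here. They were drawn with the spread that edgeR estimated from these libraries and with no difference in composition between libraries. That run therefore cannot show how the tests perform on the libraries that stood apart. Fold changes are printed for LHY in every contrast and for other clock genes at an unadjusted p under 0.1. Genes most like LHY and TOC1 are the 2 highest and 2 lowest by Pearson correlation. The clock genes and the choices above were made with earlier results of these data known.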

Additional observations from a re-analysis of the deposited data

How the results depend on the processing

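The 14 alternatives were 2 other scalings, no filter, DESeq2, a replicate block (number 1 against the other library), each library left out and both M82 libraries that are not number 1 left out. No clock gene was called under any of them except LHY between the genotypes. It was 1 gene called with GA3 by DESeq2 and with no filter. It was also 1 gene for the averaged genotype difference with no filter and without M82 library 1 without GA3 (0 to 1 over single libraries left out). The LHY difference between genotypes without GA3 was 0.024 with library totals only, 0.24 without both M82 libraries, and -0.57 to 0.25 without single libraries. The other 13 printed fold changes kept their sign. Of the 34 fold changes not printed, 22 changed sign in at least 1 alternative and 12 did not, and none was called. Scaling by totals moved the median of all genes by 0.14 for GA3 in the mutant, 0.31, 0.10 and 0.21 for the genotype differences with GA3, without GA3 and averaged, and 0.20 for the difference of the GA3 effects. Relative to the median under that scaling the LHY difference with GA3 was -1.37.

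Counts over all genes moved more. For GA3 in M82 the count of 3 became 0 with totals, 92 with no filter, 108 with DESeq2, 33 with the replicate block, 0 without both M82 libraries and 0 to 22 without single libraries. For GA3 in the mutant the count of 0 became 9 with no filter, 29 with DESeq2, 3 without both M82 libraries and 0 to 4 without single libraries. Between the genotypes without GA3 the count of 72 became 338, 412 and 166 with no filter, DESeq2 and the replicate block, 43 without both M82 libraries and 1 to 180 without single libraries. With GA3 the count of 65 (35 higher, 30 lower) became 438, 552 and 200, and 2 to 243, in the same order, and totals gave 56 higher and 11 lower. The averaged count of 559 (357 higher, 202 lower) became 1141, 1275 and 921, 363 without both M82 libraries, and 119 to 1126, and totals gave 560 higher and 107 lower. The difference of the GA3 effects gave 14 with no filter, 20 with DESeq2 and 0 to 1 without single libraries. The causes were not tested. Chosen after seeing the data, RLE factors and totals were also applied to the separation of libraries. Of the 8 clock genes, 3 did not overlap for GA3 in M82 (4 with either). For GA3 in the mutant 3 did not (3 with either). Between the genotypes with GA3, 7 did not (7 with RLE, 5 with totals). Without GA3, 1 did not (1 with RLE, 2 with totals). The shares of all genes moved too under totals, so similar counts do not show a stable separation. For GA3 in the mutant, 25.5% of all genes were separated as higher and 7.48% as lower with totals, against 14.3% and 14.9% with TMM. Between the genotypes with GA3, 41.2% were higher with totals, against 24.6% with TMM, and the share lower fell.

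The replicate numbers were not taken to pair the libraries. Over 18340 genes, with 2 numbers a group, the differences between libraries correlated by 0.42 between M82 without and with GA3. The other pairs of groups gave -0.02 to 0.18. In M82 the libraries not numbered 1 are those that stood apart. Under the replicate block 0 clock genes were called, and the LHY difference with GA3 was -1.38 (edgeR adjusted p = 0.0916). With 25 to 72 reads for TOC1 and 2 to 24 for PRR-3 per library, counting error limits both, and LUX could not be tested.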
